A study of Homo sapiens with 4 samples.

Results

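The androgen response of LNCaP cells, a human prostate cancer cell line that depends on androgen signalling, was described in cells that had received a control siRNA (siControl). The comparison consisted of 1 Affymetrix array of cells given dihydrotestosterone (DHT) and 1 array of cells given ethanol vehicle, out of 4 arrays in the study. Both cultures had been transfected with siControl 48 h before the hormone and had been kept for 3 days in 2.5% charcoal-treated serum without phenol red. One then received 10 nM DHT and the other ethanol, for a time that the labels used here do not give. The remaining pair of arrays held the same vehicle and DHT conditions after an siRNA against the antisense RNA POTEF-AS1 (siPOTEF-AS1), and its values are given beside those of siControl cells where they help to judge them. The genes described were those whose probe set carried a single gene symbol, with the brightest probe set kept for each symbol. This rule took 2540 of 33297 probe sets and left 2447 genes. A further 19068 probe sets carried a UCSC transcript identifier alone, so that most genes, among them many of the best known androgen targets, were not described by name.

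DHT is the most potent natural androgen. It binds the androgen receptor, a nuclear receptor that then binds DNA at inverted repeats of a hexamer and recruits coregulators, and in prostate epithelium this programme controls secretion, lipid and protein synthesis, growth factor signalling and the balance of proliferation and differentiation. Charcoal treatment strips steroids from serum, so that the vehicle culture represents androgen-deprived cells.

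With 1 array on each side no spread between replicates existed and no difference could be tested. Values are log2 signals, differences are DHT minus vehicle on the log2 scale, and genes at least 2-fold apart were counted in each direction. A gene was described further if its signal reached 6.45, the median of all named genes, on at least 1 of the 4 arrays, which 1300 genes did and 1147 did not. A signal under this floor may be background, and no fold is given against it. In bulk samples, fewer cells of a type and less RNA per cell cannot be told apart. Of the 12 symbols of luminal prostate markers listed for a check of the cell type, none was the single symbol of a probe set here. ACPP and ACP3 on this list name the same gene. Of 5 basal markers 2 did, KRT5 with signals of 6.57 in vehicle and 6.53 with DHT and KRT15 with 5.49 and 5.38, at and below the floor.

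Few of the named genes were 2-fold apart between DHT and vehicle, and the largest difference upwards, 3.37 for SGK1, exceeded the largest downwards, -2.04 for TNFSF18. Of the 1300 genes, 15 (1.15%) were at least 2-fold higher and 9 (0.692%) at least 2-fold lower, and 1226 (94.3%) lay within 1.5-fold. At 1.5-fold, 35 genes were higher (2.69%) and 39 lower (3%). The median difference was -0.04, the middle 50% of genes lay between -0.17 and 0.10, and the robust SD was 0.20, with values between 0.19 and 0.22 in 4 bins of 325 genes ordered by mean signal. The brightest bin held 5 of the higher genes and none of the lower ones, and the dimmest held 4 of each. With the floor at the 75th percentile of signal the counts were 14 higher and 4 lower. The last gene counted as higher, TSC22D1, stood at 1.04 and the first left out, AKAP1, at 0.93. SP140L, at -1.004, was the last counted as lower and RFC1, at -0.87, the first left out.

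**Figure D1:**
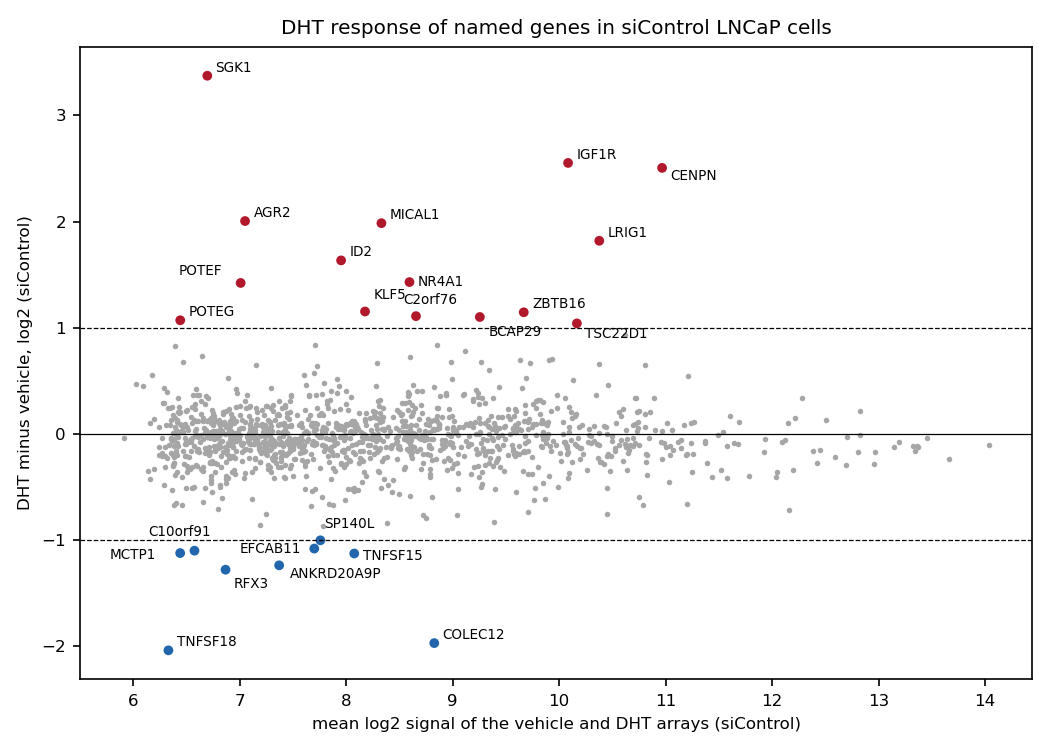
Difference between the DHT and vehicle arrays of siControl cells (vertical axis, log2) against the mean log2 signal of both arrays (horizontal axis) for the 1300 genes past the floor; dashed lines mark 2-fold. The 15 red genes are higher and the 9 blue genes lower with DHT, with SGK1 highest at 3.37 and TNFSF18 lowest at -2.04.

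A 2-fold difference on 2 arrays was not in itself rare among features that name no gene. Of 3503 probe sets without any annotation that passed the same floor, 27 were 2-fold higher (0.771%) and 35 lower (0.999%), with a robust SD of 0.25. Of 12285 probe sets past this floor with a UCSC identifier alone 1.63% were 2-fold higher and 0.667% lower. Of 13747 annotated probe sets past a floor of 6.82, their own median, 1.62% were higher and 0.669% lower. The same features were then read on the other pair of arrays. Of the 24 named genes, 23 had the same sign in siPOTEF-AS1 cells and 18 were again 2-fold apart the same way. Of the 62 probe sets without annotation, 41 had the same sign and 12 were again 2-fold apart, and these were of 2 kinds, which were separated after seeing the data. Of 14 numbered among the annotated probe sets all 14 kept their sign and 11 were again 2-fold apart, as most named genes were. Of 48 numbered below every annotated probe set 27 kept their sign and 1 was again 2-fold apart. Past the floor, the robust SD was 0.27 over the 2514 numbered below and 0.20 over the 989 numbered among the annotated ones. What those numbered below measure is not given by the labels used here, so their rates may not hold for probe sets of genes. Of the 20 named genes between 1.5-fold and 2-fold higher in siControl cells all 20 were also higher in siPOTEF-AS1 cells, 15 of them by at least 1.5-fold. Of the 30 between 1.5-fold and 2-fold lower 29 were also lower, 14 of them by at least 1.5-fold. In siPOTEF-AS1 cells 13 of the 1300 genes were 2-fold higher (1%) and 12 lower (0.923%), and at 1.5-fold 47 were higher (3.62%) and 53 lower (4.08%).

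**Figure D2:**
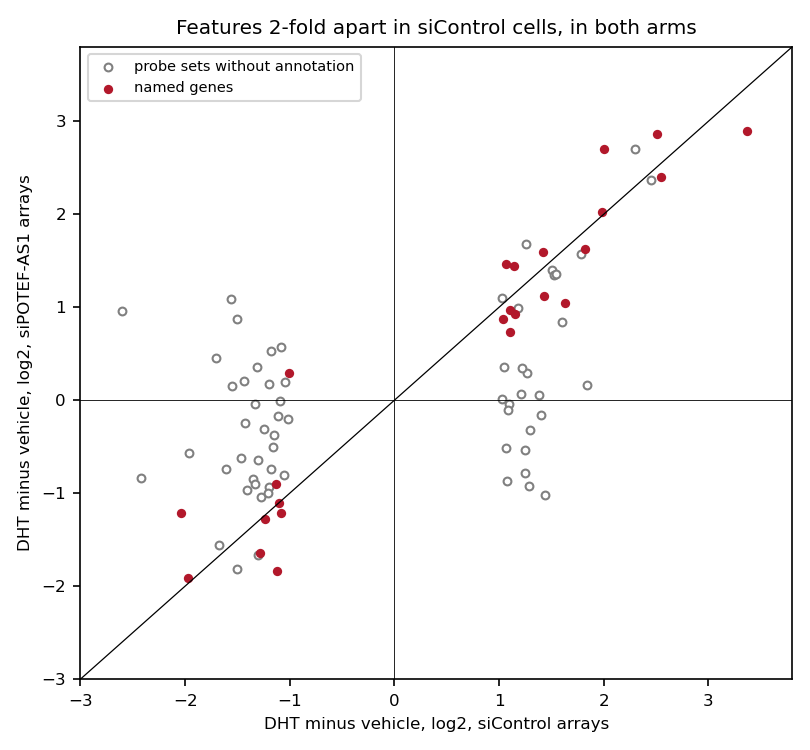
Features at least 2-fold apart between DHT and vehicle in siControl cells (horizontal axis, log2 difference) and their difference in siPOTEF-AS1 cells (vertical axis, log2); the diagonal marks equal differences. Of the 24 named genes (red) 23 have the same sign in both arms, and 18 are again 2-fold apart the same way. SP140L has opposite signs, as do 21 of the 62 probe sets without annotation (open circles), all 21 numbered below every annotated probe set.

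Growth and survival signalling genes included the 2 with the highest differences. SGK1, a serum- and glucocorticoid-regulated kinase activated downstream of phosphoinositide 3-kinase (ENSG00000118515; chromosome 6, 134490384 to 134639196, minus strand, GRCh37), had a signal of 5.01 in vehicle and 8.38 with DHT. The difference was 3.37, and since the vehicle signal was below the floor, no fold is given. IGF1R, the receptor of insulin-like growth factors, had 8.81 in vehicle and 11.36 with DHT, a 5.86-fold difference. LRIG1, a transmembrane protein that dampens receptor tyrosine kinase signalling, had 9.47 and 11.29, or 3.53-fold. A receptor and a negative regulator of such receptors were thus both higher in the same culture. SPRY1, an intracellular antagonist of growth factor signalling, went the other way, from 9.14 to 8.35, a difference of -0.79. IGF1R, LRIG1 and SPRY1 were the 3 measured of 26 listed genes of growth factor receptors and their regulators, with a median of 1.82. The GO class of growth factor and receptor kinase signalling had a median of 0.04 over 21 genes, 11 above and 10 below 0. ROR1, a receptor tyrosine kinase that binds Wnt ligands, had 8.43 and 9.27, a difference of 0.83.

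Of the 15 genes 2-fold higher, 5 are regulators of transcription. They are grouped here because they were higher. The GO class of transcription had a median of -0.03 over 179 genes, of which 3 were 2-fold higher, against 1.15% of all genes. Those 3 were NR4A1, KLF5 and TSC22D1, since the GO terms of ID2 and ZBTB16 were not used. ID2, an inhibitor of basic helix-loop-helix factors, had a signal of 7.13 in vehicle and 8.77 with DHT, or 3.10-fold. NR4A1, an orphan nuclear receptor that is also an immediate early gene, had 7.88 and 9.31, or 2.69-fold. KLF5, a Krüppel-like factor of proliferating epithelia, had 7.60 and 8.75, or 2.22-fold, and ZBTB16, the zinc finger repressor also called PLZF, had 9.09 and 10.24, or 2.21-fold. TSC22D1, a leucine zipper protein of the TSC22 family, had 9.65 and 10.69, or 2.06-fold. The vehicle signals of these 5 genes were all above the floor. In siPOTEF-AS1 cells the same differences were 1.04 for ID2, 1.12 for NR4A1, 0.93 for KLF5, 1.45 for ZBTB16 and 0.88 for TSC22D1.

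The immediate early genes had differences in both directions, with a median of 0.71. Of 30 listed, 6 were measured, and SGK1, ID2 and NR4A1 were higher. JUN, a subunit of the AP-1 transcription factor, had 9.43 in vehicle and 8.66 with DHT, a difference of -0.76. IER3 differed by -0.03, and CTGF, now named CCN2, had 6.790 in vehicle and 6.785 with DHT. Of 32 listed nuclear receptors, NR4A1 was the only one past the floor. The oestrogen receptor gene ESR1, with 5.81 and 5.62, and the progesterone receptor gene PGR, with 4.14 and 4.09, were below it.

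The genes grouped here for the secretory pathway and for sterol synthesis had differences between -0.26 for SVIP and 2.00 for AGR2. This range leaves out FUT8, at -0.84, which is described with the lower genes. AGR2, a disulfide isomerase family protein of mucin-producing cells, had 6.05 in vehicle, below the floor, and 8.05 with DHT. BCAP29, an endoplasmic reticulum membrane protein of the BAP29/BAP31 family (chromosome 7, 107220710 to 107259109, plus strand, GRCh37), had 8.70 and 9.80, or 2.14-fold. SEC24C, a cargo-binding subunit of the COPII coat that buds vesicles from the endoplasmic reticulum, differed by 0.70. RAB4A, a small GTPase of endosome recycling, differed by 0.68. SLC17A5, the lysosomal sialic acid exporter, had 9.04 and 9.64, a difference of 0.60. The chaperone-associated genes MANF and DNAJB11 differed by 0.65 and 0.51, and SVIP, an inhibitor of endoplasmic reticulum-associated degradation, by -0.26. With AGR2 these were the 4 measured of 27 genes listed for endoplasmic reticulum chaperones and stress, with a median of 0.58. The larger GO classes did not share that median. Protein folding and endoplasmic reticulum stress had -0.12 over 17 genes, of which 12 were below 0. Vesicle and protein transport had 0.01 over 64, of which 30 were below 0, against 56.8% of all genes. In this class 3 genes were 1.5-fold higher and 1, FUT8, was lower, against 2.69% and 3% of all genes.

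In lipid metabolism NSDHL, a sterol dehydrogenase of cholesterol synthesis, had 10.04 and 10.70, and STARD4, a sterol transfer protein, differed by 0.39. They were the 2 measured of 32 listed sterol genes. ECI2, an isomerase of unsaturated fatty acid oxidation, had 9.58 and 10.29, and PNPLA8, a calcium-independent phospholipase, had 9.40 and 10.06. All 4 were higher in siPOTEF-AS1 cells too, by 0.81 for NSDHL, 0.90 for STARD4, 0.77 for ECI2 and 0.56 for PNPLA8. The GO class of lipid, sterol and steroid metabolism held 36 genes past the floor, of which 4 were 1.5-fold higher and none lower, against 2.69% and 3% of all genes. These 4 were NR4A1, ECI2, PNPLA8 and NSDHL. The class median was 0.01, so that the other genes of the class lay around 0.

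Among cytoskeletal genes MICAL1 stood highest. MICAL1, a monooxygenase that oxidises and disassembles actin filaments (chromosome 6, 109765265 to 109776848, minus strand, GRCh37), had a signal of 7.34 in vehicle and 9.32 with DHT, or 3.96-fold. MYLK, the myosin light chain kinase gene, differed by -0.50 and KRT5 by -0.04, and with MICAL1 these were the 3 measured of 25 listed cytoskeletal genes. The GO class of actin and cytoskeleton organization, with 36 genes, was evenly split at 0. It held 2 genes 1.5-fold higher and 2 lower, against 2.69% and 3% of all genes. AKAP1, which anchors protein kinase A at the outer mitochondrial membrane, had 10.15 and 11.08, or 1.90-fold, whereas AKAP7, another anchor of this kinase, had 6.73 and 6.07. C2orf76, whose function is not known, had 8.10 and 9.21, or 2.16-fold. MTMR11, a member of the myotubularin family, had 7.95 and 8.63.

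**Figure D3:**
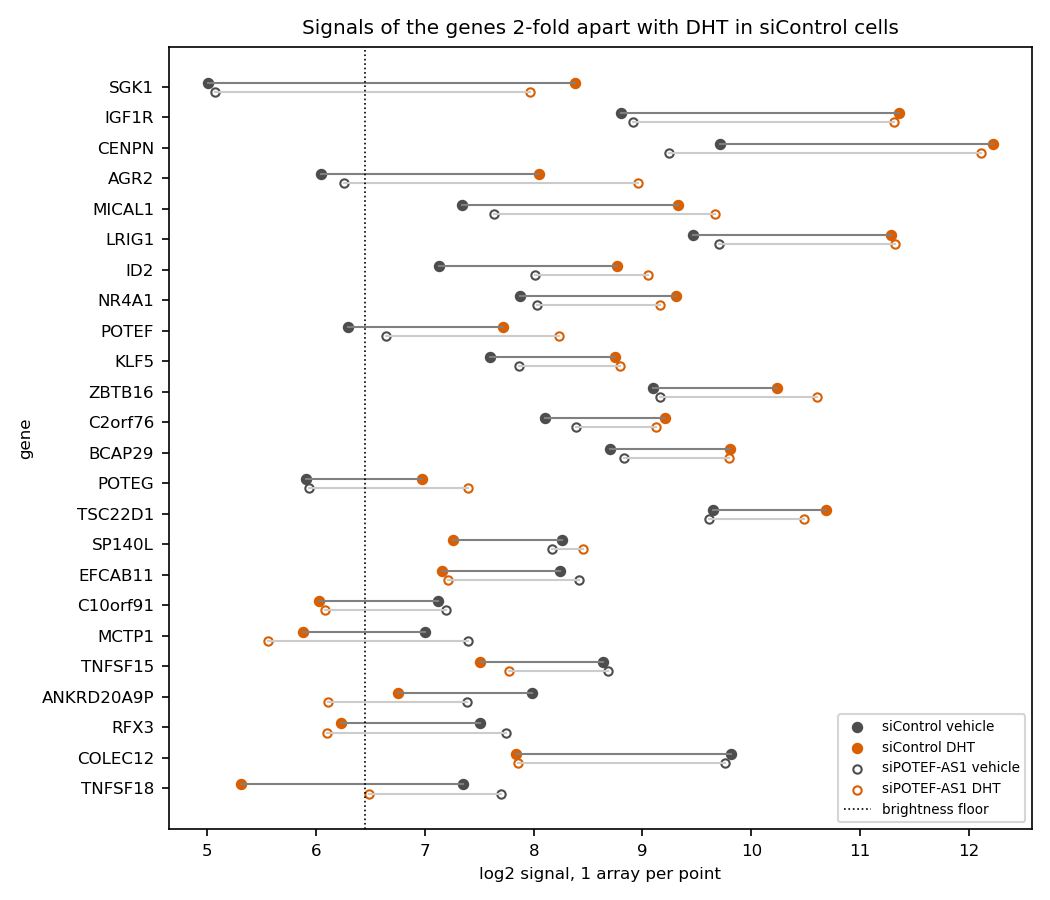
Log2 signal on each of the 4 arrays (horizontal axis, 1 array per point) for the 24 genes at least 2-fold apart with DHT in siControl cells, ordered by their difference; filled points are siControl and open points siPOTEF-AS1 cells, and the dotted line is the floor of 6.45. SGK1, AGR2, POTEF and POTEG start below the floor in siControl vehicle cells, and TNFSF18, RFX3, MCTP1 and C10orf91 end below it with DHT.

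CENPN, which recognises the centromeric histone variant CENP-A, stood apart from the other genes of cell division. Its signal was 9.71 in vehicle and 12.22 with DHT, or 5.68-fold. Of the other genes on the list of cell cycle and mitosis, CDC20, an activator of the anaphase-promoting complex, differed by -0.18 and CCNG1 by -0.17. CCNG2, an atypical cyclin linked to cell cycle arrest, had 10.08 and 9.45, a difference of -0.62. These were the 4 measured of 45. In the larger GO class of cell cycle and mitosis, CENPN was the 1 gene 1.5-fold higher among 68 past the floor. Another 4 were 1.5-fold lower, and over all genes 2.69% were higher and 3% lower by that measure. The 4 lower genes included RFC1, the large subunit of the replication clamp loader, at -0.87. CASC5 (current symbol KNL1), a kinetochore scaffold, stood at -0.63. The others were CCNG2 and, at -0.60, the tubulin gene TUBA4A. Of the 68 genes 47 (69.1%) were below 0, against 56.8% of all genes past the floor. With arrays centred on their medians these shares were 63.2% and 49.3%.

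The genes lower with DHT included both measured ligands of the tumour necrosis factor superfamily. TNFSF18, the ligand of the costimulatory receptor GITR, had a signal of 7.35 in vehicle and 5.31 with DHT, the latter below the floor. TNFSF15, also called TL1A, had 8.64 and 7.51, or 2.19-fold lower. TNFRSF25, the receptor of TNFSF15 and the third measured member of this family, differed by 0.08. COLEC12, a scavenger receptor with a collagen-like and a lectin domain (ENSG00000158270; chromosome 18, 319361 to 500722, minus strand, GRCh37), had 9.81 and 7.84, or 3.92-fold lower. TNFAIP3, which restrains NF-kB signalling, had 7.40 and 8.04. With TNFSF18 and IER3 it made up the 3 genes past the floor of 19 listed NF-kB targets and regulators, with a median of -0.03. In siPOTEF-AS1 cells TNFSF18 differed by -1.22, TNFSF15 by -0.91, COLEC12 by -1.91 and TNFAIP3 by 1.14.

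The other lower genes had varied roles. RFX3, a transcription factor of ciliated cells, had 7.51 and 6.23, and MCTP1, a calcium-binding membrane protein with C2 domains, 7.001 and 5.88. EFCAB11, an EF-hand protein, had 8.24 and 7.16, or 2.12-fold lower. The pseudogene ANKRD20A9P had 7.99 and 6.75, and C10orf91 (current symbol LINC02870) had 7.12 and 6.02. Below 2-fold, FUT8, the fucosyltransferase of N-glycan cores, had 8.81 and 7.97. GALNT1, which starts O-linked glycans, differed by 0.31. GALNT1 and FUT8 were the 2 measured of 25 listed genes of glycan synthesis and secretion. NFAT5, the transcription factor of the osmotic stress response, had 11.54 and 10.87, and PCBD2, a pterin dehydratase, 8.004 and 7.32. LINC00478 (current symbol MIR99AHG), a host transcript of microRNAs, had 10.18 and 9.56. CYP2J2, a cytochrome P450 that epoxidises arachidonic acid, had 9.10 and 8.51, and the pseudogene GUSBP2 had 12.52 and 11.80. All of these were below 0 in siPOTEF-AS1 cells except GALNT1.

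SP140L, a nuclear body protein, had 8.26 in vehicle and 7.25 with DHT and was just 2-fold lower, or -0.96 to -0.98 under 3 other scalings. It was the one of the 24 genes with the opposite sign in siPOTEF-AS1 cells, where it differed by 0.29. It belonged to the list of interferon-stimulated genes, to which it was added with its values known. All 7 measured members past the floor were below 0 in siControl cells, with a median of -0.28, against 56.8% of all genes below 0. SP140L was the 1 member 2-fold lower, against 0.692% of all genes. CMPK2 differed by -0.51, OASL by -0.41, IFI44L by -0.28, BST2 by -0.27, IFITM3 by -0.17 and IFITM1 by -0.13. EPSTI1 was below the floor. IFI16, an interferon-inducible DNA sensor that is not on the list and was chosen after its values were seen, had 8.17 and 7.51, and differed by 0.11 in siPOTEF-AS1 cells. In siPOTEF-AS1 cells 5 of the 7 list members were above 0, while 49.2% of all genes were below 0 there. Besides SP140L these were BST2 at 0.44 and, near 0, OASL at 0.05, IFI44L at 0.06 and CMPK2 at 0.08. IFITM1 and IFITM3 stood at -0.04 and -0.004. The larger GO class of innate viral defence had 34 of 48 genes below 0 in both arms. C19orf66 (current symbol SHFL), which restricts viral translation, had 10.08 and 9.34 in siControl cells, and differed by -0.23 in siPOTEF-AS1 cells. The difference between arms was not tested.

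Genes listed as androgen-induced were higher, and those listed as androgen-repressed were hardly measured. Of 51 androgen-induced genes 7 were measured and 6 were past the floor, of which 5 were 2-fold higher, against 1.15% of all genes: SGK1, IGF1R, CENPN, LRIG1 and ZBTB16. The list median was 2.16 in siControl and 2.01 in siPOTEF-AS1 cells. This list was compiled with results of these data known and is not independent evidence of its direction. KLK15, a kallikrein protease, had 6.89 in vehicle and 7.20 with DHT, and ADAM7 was below the floor. Of 23 androgen-repressed genes, DAB1 was measured, with 5.43 and 5.57, below the floor. No gene of the lists of polyamine synthesis or of neuroendocrine, stromal, leukocyte or endothelial markers was measured by name.

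The POTE genes, near-identical primate-specific ankyrin repeat genes, gave mixed values. POTEF (chromosome 2, 130832909 to 130878140, minus strand, GRCh37) had 6.30 in vehicle and 7.72 with DHT, and POTEG had 5.91 and 6.97, with both vehicle signals below the floor. POTEJ differed by 0.10 and POTEI by -0.03. A second probe set of POTEI differed by 1.21, so that the direction of POTEI depended on the probe set. Probes of one copy can also bind transcripts of another, which makes these values uncertain. Among the 43 genes with 2 or more probe sets past the floor, POTEI was the 1 whose probe sets were 2-fold or more apart, and the median spread was 0.03. In 12 of the 43 all probe sets held identical values, which lowers that median.

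The 24 genes were searched for the sequence bound by the androgen receptor in a window at 1 RefSeq gene start each. This window is called the promoter here. Other starts of the same gene were not searched, and whether the start used is active in LNCaP cells was not examined. A match therefore need not lie in the promoter in use, that of MICAL1 included. The search covered 250 bases before to 50 bases after the RefSeq gene start (GRCh38.p14) on both strands, for the hexamer AGAACA, which on the other strand reads TGTTCT, and for the full element, the hexamer and its reverse complement around any 3 bases. Of the 15 higher genes 14 had a promoter in the table, and of the 9 lower genes 8. None held the full element, which occurred in 1 of all 35116 promoters. The hexamer occurred in 3 of the 14 (21.4%) and 2 of the 8 (25%), compared with 14.8% of all promoters and 9.33% of the 847 promoters of genes past the floor. A match is a description of the letters and not of binding. The 5 promoters with a match are shown, since they are those that hold the hexamer among the responding genes, 5′ to 3′ in the direction of the gene, with the hexamer in capitals.
MICAL1 (chr6:109465919-109466218, minus strand): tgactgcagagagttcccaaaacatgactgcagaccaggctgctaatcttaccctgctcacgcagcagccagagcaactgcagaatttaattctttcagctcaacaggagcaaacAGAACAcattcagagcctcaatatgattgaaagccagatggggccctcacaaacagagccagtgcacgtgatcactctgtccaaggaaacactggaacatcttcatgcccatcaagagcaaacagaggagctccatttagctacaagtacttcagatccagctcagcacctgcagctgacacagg
POTEF (chr2:130129173-130129472, minus strand): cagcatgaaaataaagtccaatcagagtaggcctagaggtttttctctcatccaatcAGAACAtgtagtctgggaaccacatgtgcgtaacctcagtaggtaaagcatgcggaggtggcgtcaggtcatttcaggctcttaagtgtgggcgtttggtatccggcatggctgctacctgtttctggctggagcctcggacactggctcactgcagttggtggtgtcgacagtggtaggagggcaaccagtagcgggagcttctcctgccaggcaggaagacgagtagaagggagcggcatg
KLF5 (chr13:73054726-73055025, plus strand): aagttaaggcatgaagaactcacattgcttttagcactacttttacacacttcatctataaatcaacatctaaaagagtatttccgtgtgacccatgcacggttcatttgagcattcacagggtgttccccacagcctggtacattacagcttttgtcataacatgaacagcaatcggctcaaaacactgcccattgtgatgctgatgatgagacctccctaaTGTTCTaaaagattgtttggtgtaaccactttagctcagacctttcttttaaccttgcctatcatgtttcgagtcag
TNFSF18 (chr1:173050892-173051191, minus strand): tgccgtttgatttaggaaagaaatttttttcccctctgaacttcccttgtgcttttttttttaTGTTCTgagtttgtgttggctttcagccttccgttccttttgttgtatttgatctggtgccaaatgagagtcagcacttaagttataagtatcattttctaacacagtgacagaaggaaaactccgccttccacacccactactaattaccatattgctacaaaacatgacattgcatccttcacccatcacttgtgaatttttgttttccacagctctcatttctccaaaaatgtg
C10orf91, LINC02870 (chr10:132444939-132445238, plus strand): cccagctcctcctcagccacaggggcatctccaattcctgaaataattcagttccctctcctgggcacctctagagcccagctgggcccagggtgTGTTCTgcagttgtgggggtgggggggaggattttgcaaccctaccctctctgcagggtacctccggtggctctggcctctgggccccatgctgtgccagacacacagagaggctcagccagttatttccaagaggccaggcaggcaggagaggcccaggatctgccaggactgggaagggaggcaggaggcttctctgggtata
The hexamer began 135 bases before the gene start in MICAL1, 193 in POTEF and 27 in KLF5, among the higher genes, and 187 in TNFSF18 and 155 in C10orf91, among the lower ones. SGK1, IGF1R, CENPN and AGR2, the 4 genes with the highest differences, had no match in this window. This says nothing of other starts of these genes, which were not searched.

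Across GO Biological Process terms, the DHT difference of most classes centred on that of all genes. Terms were used for 746 of the 1300 genes past the floor, and those of a further 71, SGK1, IGF1R, ID2, ZBTB16 and JUN among them, were not used here. Of the classes, chromatin organization had the lowest median, -0.13 over 48 genes, of which 41 (85.4%) were below 0. It was followed by immune and inflammatory response, with -0.12 over 61 genes. In that class 41 (67.2%) were below 0, against 56.8% of all genes. Of its genes 3 were 2-fold lower (TNFSF18, COLEC12 and TNFSF15), against 0.692% of all genes, and 1 was 2-fold higher (NR4A1), against 1.15%. The class of apoptosis held 4 genes 2-fold higher, MICAL1, NR4A1, BCAP29 and TSC22D1, and 2 lower, TNFSF18 and TNFSF15, among 65, with a median of -0.02, against 1.15% of all genes higher and 0.692% lower. The class of transcription, the largest with 179 genes, had a median of -0.03, with 4 genes 1.5-fold higher and 6 lower, near the 2.69% and 3% of all genes. The cell adhesion class, with 22 genes, and that of proteolysis and ubiquitination, with 48, had no gene 1.5-fold apart in either direction.

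**Figure D4:**
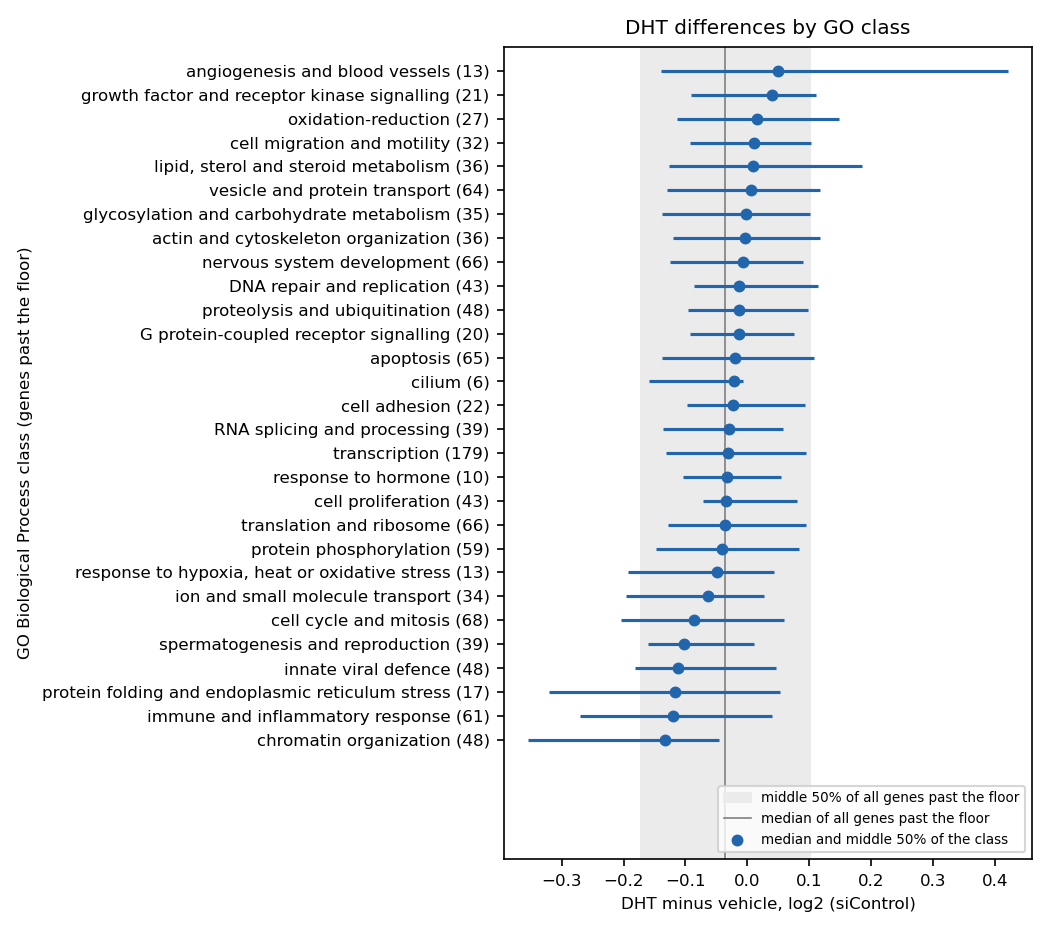
Median (point) and middle 50% (line) of the log2 difference between DHT and vehicle in siControl cells for GO Biological Process classes with 5 or more genes past the floor, with the number of genes in brackets; the grey band and line give the middle 50% and the median of all 1300 genes. Class medians lie between -0.13 for chromatin organization and 0.05 for angiogenesis and blood vessels.

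The low median of the chromatin class went with the histone genes, which encode the core and linker proteins of nucleosomes and are mostly transcribed in S phase. All 18 histone genes past the floor were below 0, against 56.8% of all genes, with a median of -0.29 and values from -0.55 to -0.03. None was 1.5-fold lower. HIST1H2BF had the largest difference, with 9.87 in vehicle and 9.32 with DHT, and HIST1H4C (current symbol H4C3), one of the brighter ones, had 11.26 and 10.80. HIST1H2BL had the smallest, with 8.74 and 8.72. In siPOTEF-AS1 cells 17 of the 18 were below 0, with a median of -0.34. With arrays centred on their medians 17 of 18 were below 0, and the median was between -0.25 and -0.27 under 3 other scalings. Copies of the same histone class are near-identical in sequence, so that their probe sets may share transcripts, and the 18 genes are not independent. Without them, 30 genes of the chromatin class had a median of -0.07, and 23 (76.7%) were below 0.

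The 7 mitochondrial tRNAs past the floor, transcribed from the mitochondrial genome, were all below 0, against 56.8% of all genes. Their median was -0.29, and between -0.21 and -0.25 under 3 other scalings. MT-TL2, a leucine tRNA, had 11.13 and 10.46, and MT-TW, the tryptophan tRNA, 6.71 and 6.04. In siPOTEF-AS1 cells all 7 were below 0 too. Ribosomal protein genes had a median of -0.10, with 13 of 16 below 0, and their pseudogenes had -0.21, with 10 of 12. After centring on the medians 11 of the 16 ribosomal protein genes were below 0, against 49.3% of all genes. Whether the members of these groups share transcripts or sequence was not examined, so their signs may not be independent. The 36 zinc finger ZNF genes were evenly split, 18 above and 18 below 0, with ZNF724P (current symbol ZNF724) the 1 gene 1.5-fold apart, at -0.59. The 18 solute carrier genes had a median of 0.02. The 16 TMEM, 24 FAM and 7 CCDC genes held none 1.5-fold apart, against 2.69% higher and 3% lower over all genes.

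By Ensembl biotype, given for 542 of the 1300 genes, the 375 protein-coding genes held 7 of the 2-fold higher and 3 of the lower genes and the 67 pseudogenes held 1 lower gene, ANKRD20A9P, against 1.15% higher and 0.692% lower over all 1300 genes. The 62 genes annotated as rRNA, mostly copies of 5S rRNA, had a median of -0.04 in siControl and 0.31 in siPOTEF-AS1 cells. RNA5SP506 was the 1 of them 1.5-fold higher, against 2.69% of all genes, and none was 1.5-fold lower. It had 6.13 in vehicle, below the floor, and 6.81 with DHT. Of 8 snRNAs 5 were below 0, and RNU6-54 (current symbol RNU6-54P) was the 1 at least 1.5-fold lower, with 9.80 and 8.97. Of 12 miscellaneous RNAs 8 were below 0, and RNY4P18 was the 1 at least 1.5-fold lower, with 7.62 and 6.86. Over all genes 3% were lower by that measure and 56.8% were below 0. Such small RNAs have many near-identical copies, and their values are uncertain. The 14 LINC and antisense RNA genes past the floor, of 37 measured, had a median of -0.14. Of these 11 were below 0, or 9 when the arrays were quantile-normalised again, against 56.8% and 52.2% of all genes. With the floor at the 75th percentile 2 of them were left, with a median of -0.50.

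**Figure D5:**
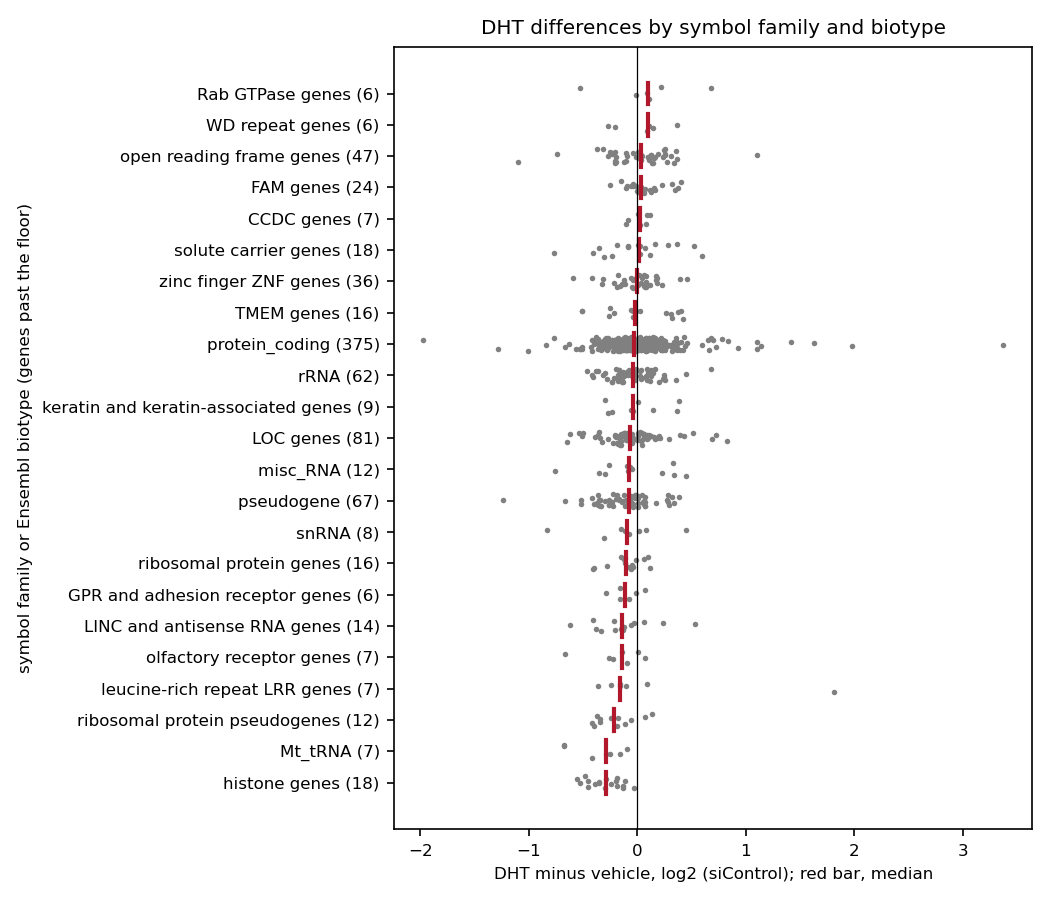
Log2 difference between DHT and vehicle in siControl cells for each gene past the floor (grey points) in symbol families and Ensembl biotypes with 6 or more such genes, with the number of genes in brackets and the median as a red bar. The 18 histone genes and the 7 mitochondrial tRNAs all lie below 0, with medians of -0.29.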

How the data were processed

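RNA from LNCaP cells was measured on 4 Affymetrix arrays, 1 for each combination of siRNA and hormone. The deposited values are log2 signals. Per the submitters' processing notes, RMA and Affymetrix Expression Console were used, without versions. RMA corrects background, equalises the arrays and summarises probes, so that a change in total RNA per cell is removed and dim differences are compressed. A second deposited table held the same values within 1.78e-15. Probe set signals had no detection call. Precision is limited by the number of arrays.

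Probe sets with 1 symbol were collapsed to the one with the highest mean over the 4 arrays, with Python 3.11.15, pandas 2.3.3 and numpy 2.4.6. No test was run, since each group was 1 array. The code of the calling step was run on simulated data with less noise than these arrays showed. That run checks the code and says nothing of how reliable the counts are. Symbols were updated through RefSeq (GRCh38.p14): 1985 of 2447 were current, 201 were synonyms and 261 did not match. Promoter sequences are from RefSeq. Ensembl coordinates are those of the table, on GRCh37. GO classes, families and 20 gene lists (417 symbols, 46 measured, 6 lists with none) were chosen with earlier results of these data known. Genes were named by rule: up to 15 in each direction past 2-fold, measured list members (at most 8 a list), and up to 4 in each direction past 1.5-fold in a class. TNFRSF25, IFI16 and the histone genes named were chosen after their values were seen. Alternatives were another scaling (median centring, quantile normalization, removal of the trend on signal by lowess with a span of 0.3, statsmodels 0.14.6), another probe set rule, other floors, 1.5-fold and annotated probe sets. Some genes that the rule names are not reported here.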

Additional observations from a re-analysis of the deposited data

Results flagged for a closer look

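The DHT difference of SP140L was -1.004 after siControl and 0.29 after siPOTEF-AS1, a gap of 1.29 with opposite signs, and that of the uncharacterised LOC100996378 was -0.54 and 0.69, a gap of 1.23. These differences between arms were not tested. LOC100996378 was chosen after its values were seen.

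Signal also appeared in probe sets that the comparisons by name do not use. Of 12285 probe sets past the floor with a UCSC identifier alone, 200 were 2-fold higher with DHT in siControl cells (1.63%) and 82 lower (0.667%). Of the probe sets without any annotation, 27 were 2-fold higher and 35 lower.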

How the results depend on the processing

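Of 15 genes 2-fold higher with DHT, the same 15 were so under each of 3 other scalings, and of 9 lower genes 8 were so under the 3 scalings, where SP140L fell short. The counts were 15 and 9 with the mean of a gene's probe sets, and became 14 and 4 with the floor at the 75th percentile, 20 and 12 with no floor, and 35 and 39 at 1.5-fold. Over annotated probe sets they were 223 and 92. Among gene lists, the androgen-induced median became 1.82 with no floor and 2.51 with the higher floor, that of immediate early genes 1.53 with the higher floor, and that of the cytoskeletal list 1.98, from 1 gene. The POTE median became 0.83 with the mean of probe sets and 0.10 with the higher floor, which left 3 genes. With no floor the median of olfactory receptor genes turned from -0.14 to 0.0066 and that of the GPR genes from -0.12 to 0.0078, values that then rest on dim genes. Leaving the histone genes out of GO classes was chosen after seeing the data. No paired analysis was possible because the siControl comparison is 1 pair of arrays. Pairing DHT with vehicle across both siRNAs would measure their mean response, which is another comparison and was not run. Without detection calls, depth could not be judged beyond the floor: 4 of the higher genes were below it in vehicle and 4 of the lower genes below it with DHT.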
